A study of Mus musculus with 9 samples.

Results

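The STAT genes followed here are Stat2, Stat3, Stat4, Stat5a, Stat5b and Stat6, which were taken by gene symbol from the deposited table of normalized values. All 6 were found among the 16500 genes listed. STAT proteins wait in the cytoplasm until a cytokine binds its receptor and the receptor-bound Janus kinases (JAKs) phosphorylate them on tyrosine, after which they pair, enter the nucleus and switch on genes. In CD4+ T cells the family divides labour: STAT5 carries signals of IL-2 and IL-7, STAT3 those of IL-6, IL-10 and IL-21, STAT4 those of IL-12, STAT6 those of IL-4 and STAT2 those of type I interferon. STAT4 is known for its part in Th1 and STAT6 for its part in Th2 differentiation.

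RNA was sequenced as paired ends from 9 libraries of primary CD4+ T cells of C57BL/6 mice, grown in RPMI-1640 with FBS and transduced with a retrovirus. The vector was NFAT2-CA in 3 libraries, NFAT2-CARIT in 3 and a Control vector in 3. NFAT2, encoded by Nfatc1, is a transcription factor that calcium signals send to the nucleus. In the CA form it is constitutively active, and the added RIT mutations weaken its joint binding with AP-1. The labels state neither the age and sex of the mice, nor the share of cells that carried a vector, nor whether replicates came from separate animals. The p-values therefore measure the spread between these libraries, which may be technical.

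Read depth, inferred from how low values are spaced, ran from 19852800 to 38107800 reads per library, and every STAT value rested on an estimated 1478 to 21025 reads. Values are in CPM, a gene's reads relative to all reads counted in its library. Log2 fold changes are on CPM + 1 and come with their standard error (SE) and the adjusted p of limma, fitted over the 9233 genes that reached 10 CPM in at least 3 libraries. All 6 STAT genes passed that filter. Nfatc1 stood at 358 ± 32.7 CPM with NFAT2-CA, 246 ± 6.48 CPM with NFAT2-CARIT and 213 ± 22.1 CPM in Control (SD, n = 3 each); the labels do not state if vector-derived reads are part of it. The 7 CD4 T cell markers were all present and summed to 6278 to 6711 CPM with NFAT2-CA and 5953 to 6060 CPM with NFAT2-CARIT, above the 5028 to 5176 CPM of Control. Within that list Cd4 itself was at 1620 ± 57.7, 1660 ± 45.7 and 1571 ± 58.5 CPM in NFAT2-CA, NFAT2-CARIT and Control, whereas Cd3e was at 949.9 ± 43.1, 706 ± 30.9 and 419.5 ± 15.04 CPM. Of the 2 CD8 markers, Cd8b1 was at 28.9 ± 1.38, 21.4 ± 0.794 and 12.7 ± 0.464 CPM in the same order of groups, and Cd8a stayed near 0, at 0.485 ± 0.132, 1.69 ± 0.331 and 0.262 ± 0.207 CPM. The 2 measured B cell markers of 5 summed to at most 1.23, 1.60 and 3.47 CPM, and the 3 measured myeloid markers of 6 to at most 1.76, 3.76 and 9.70 CPM in the same order of groups. Of 4 NK cell markers 1 was measured, at no more than 2.78, 1.65 and 3.67 CPM. The part of these marker levels in the STAT results was not tested.

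With either NFAT2 vector, transcripts of Stat4 and Stat6 fell and those of Stat2, Stat3, Stat5a and Stat5b rose. The mean of Stat4 fell by 44.2% with NFAT2-CA and fell by 27.7% with NFAT2-CARIT, each relative to Control. Stat5b rose most, by 50.3% and 48.7%. The vectors differed from each other at Stat4, which was higher with NFAT2-CARIT than with NFAT2-CA, and by a small margin at Stat6, which was lower. In the 12 comparisons of a STAT gene with Control, the libraries of the groups never overlapped. In bulk RNA, fewer cells with a transcript and less of it per cell cannot be told apart.

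**Figure D1:**
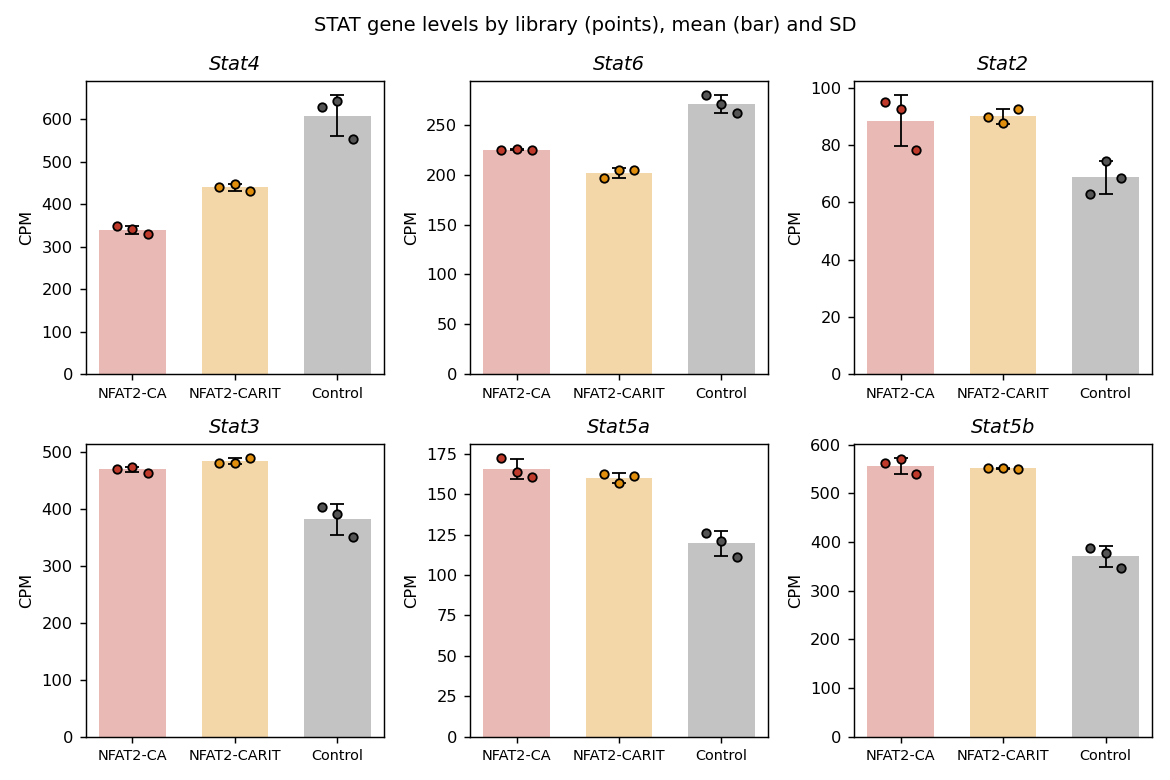
Level in CPM (y axis, from 0) of each STAT gene in NFAT2-CA, NFAT2-CARIT and Control libraries; points are libraries, bars the group mean and whiskers the SD (n = 3 each). Stat4 averaged 339.8 CPM with NFAT2-CA, 439.8 with NFAT2-CARIT and 609 in Control, while Stat2, Stat3, Stat5a and Stat5b were higher with both vectors than in Control.

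Such changes were common in these cells, so the counts are read against the whole table. For NFAT2-CA against Control, 6 of 6 STAT genes were called at an adjusted p under 0.05, against 72.0% of all genes tested; 4 were higher, against 31.6%, and 2 lower, against 40.5%. For NFAT2-CARIT against Control, 6 of 6 were again called, against 75.4%, with 4 higher (32.1% of all genes) and 2 lower (43.3%). Non-overlapping libraries were found for 73.0% and 76.9% of all genes in these comparisons. The median size of change over the 6 genes was 0.41 on the log2 scale with NFAT2-CA and 0.42 with NFAT2-CARIT, close to the 0.35 and 0.39 of all genes tested. Both comparisons use the same Control libraries.

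Stat4, which relays IL-12 signals, lies on chromosome 1 (51987148 to 52107189, plus strand, GRCm38). The NFAT2-CA libraries held 349, 341 and 329 CPM, against 629, 644 and 553 CPM in the Control libraries. The highest NFAT2-CA library thus lay well below the lowest Control library. The log2 fold change was -0.84 ± 0.06 (adjusted p = 3.7e-09), larger in size than that of about 82% of the genes tested. With NFAT2-CARIT the libraries held 440.3, 448 and 431 CPM, between the other groups and overlapping neither. Relative to Control this was -0.46 ± 0.06 on the log2 scale (adjusted p = 3.8e-06). The direct comparison of NFAT2-CARIT with NFAT2-CA gave 0.37 ± 0.06 (adjusted p = 0.00025), at the 95th percentile of the signed changes of all genes. The authors' deposited table lists -0.84, -0.47 and 0.37 for the same comparisons, with a false discovery rate (FDR) of 0.00099 for the last. The span of Stat4 overlaps the gene model Gm28177 on the same strand, which stayed at or below 6.34 CPM in every library.

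Stat6, the IL-4 and IL-13 signal carrier on chromosome 10 (127642986 to 127660957, plus strand), was the other gene that fell. NFAT2-CA libraries held 225, 226 and 225 CPM, against 280.1, 271 and 262 CPM in Control libraries, with no overlap. The fold change was -0.27 ± 0.05 on the log2 scale (adjusted p = 0.00023). With NFAT2-CARIT, 196, 204 and 205 CPM were measured, below every library of the other groups. This gave -0.42 ± 0.05 against Control (adjusted p = 1.5e-06). The direct comparison, NFAT2-CARIT over NFAT2-CA, gave -0.16 ± 0.05 (adjusted p = 0.027). That last call is marginal: the adjusted p was 0.067 under TMM-type scaling and 0.050 to 0.103 when NFAT2-CA replicate 1, 2 or 3 or NFAT2-CARIT replicate 1 or 2 was left out, and the authors' deposited table gives an FDR of 0.92. Stat6 overlaps 40 bases of Nab2 on the other strand; Nab2 was at 73.5 to 82.1 CPM in the NFAT2 libraries and 64.1 to 70.9 CPM in Control.

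The 2 STAT5 genes encode closely related proteins that carry IL-2, IL-7 and IL-15 signals and sit 8.6 kb apart on chromosome 11, head to head. Stat5b (100780731 to 100850724, minus strand) was read at 562, 571 and 539 CPM with NFAT2-CA, 552, 552 and 550.3 CPM with NFAT2-CARIT and 389, 377 and 346 CPM in Control. Every NFAT2 library exceeded every Control library, and the libraries of the vectors overlapped. The log2 fold changes against Control were 0.59 ± 0.06 with NFAT2-CA (adjusted p = 1.0e-07) and 0.57 ± 0.06 with NFAT2-CARIT (adjusted p = 1.2e-07).

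Stat5a (100859351 to 100885169, plus strand) had 173, 164 and 160.4 CPM with NFAT2-CA, 162, 157 and 161 CPM with NFAT2-CARIT, and 126, 121 and 111 CPM in Control. All NFAT2 libraries were above all Control libraries. Its log2 fold changes were 0.47 ± 0.06 (adjusted p = 2.3e-06) with NFAT2-CA and 0.42 ± 0.06 (adjusted p = 6.8e-06) with NFAT2-CARIT. Of the 100-base windows of the principal Stat5a transcript, 6.99% occur unchanged in a Stat5b transcript, and 15.8% of 50-base windows do. Reads from those stretches cannot be assigned with certainty, and how they were counted is not stated. The summed level of the pair was 723 ± 20.2 CPM with NFAT2-CA, 712 ± 2.75 CPM with NFAT2-CARIT and 490.2 ± 29.4 CPM in Control, without overlap with Control. The ratio of Stat5a to Stat5b was 0.297 ± 0.00998 with NFAT2-CA, 0.290 ± 0.00566 with NFAT2-CARIT and 0.322 ± 0.00203 in Control, lower in all 6 NFAT2 libraries than in the Control libraries. A two-sided exact permutation test on the log ratio gave p = 0.1 for either vector, the smallest value that 3 against 3 libraries allow.

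Stat3, which carries IL-6, IL-10 and IL-21 signals and is needed for Th17 differentiation, is the next gene along chromosome 11 (100885098 to 100939540, minus strand). Its 3′ end overlaps that of Stat5a by 72 bases. Levels were 471, 475 and 464 CPM with NFAT2-CA, 481, 482 and 491 CPM with NFAT2-CARIT, and 404, 392 and 351 CPM in Control. The rise was 0.30 ± 0.06 on the log2 scale with NFAT2-CA (adjusted p = 0.00023) and 0.34 ± 0.06 with NFAT2-CARIT (adjusted p = 5.6e-05). Stat3, Stat5a and Stat5b, 3 neighbours on chromosome 11, thus all rose, whereas Stat2 and Stat6, which lie 609.6 kb apart on chromosome 10, went in opposite directions.

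Stat2, the interferon-specific member that joins IRF9 on DNA, lies on chromosome 10 (128270559 to 128292849, plus strand) and had the lowest level of the 6. It was measured at 94.9, 92.5 and 78.3 CPM with NFAT2-CA, 89.8, 87.6 and 92.7 CPM with NFAT2-CARIT, and 63.1, 74.6 and 68.5 CPM in Control. Neither vector group overlapped with Control, but the lowest NFAT2-CA library lay close to the highest Control library. The log2 fold changes were 0.36 ± 0.08 (adjusted p = 0.00052) with NFAT2-CA and 0.39 ± 0.08 (adjusted p = 0.00024) with NFAT2-CARIT. In the authors' deposited table Stat2 does not pass, with an FDR of 0.097 and 0.062. The same table calls the other 5 STAT genes in both comparisons, against 21.9% and 25.6% of its genes. Those shares are over 16477 genes, which include genes below 10 CPM, and so are no like background for the STAT genes.

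**Figure D2:**
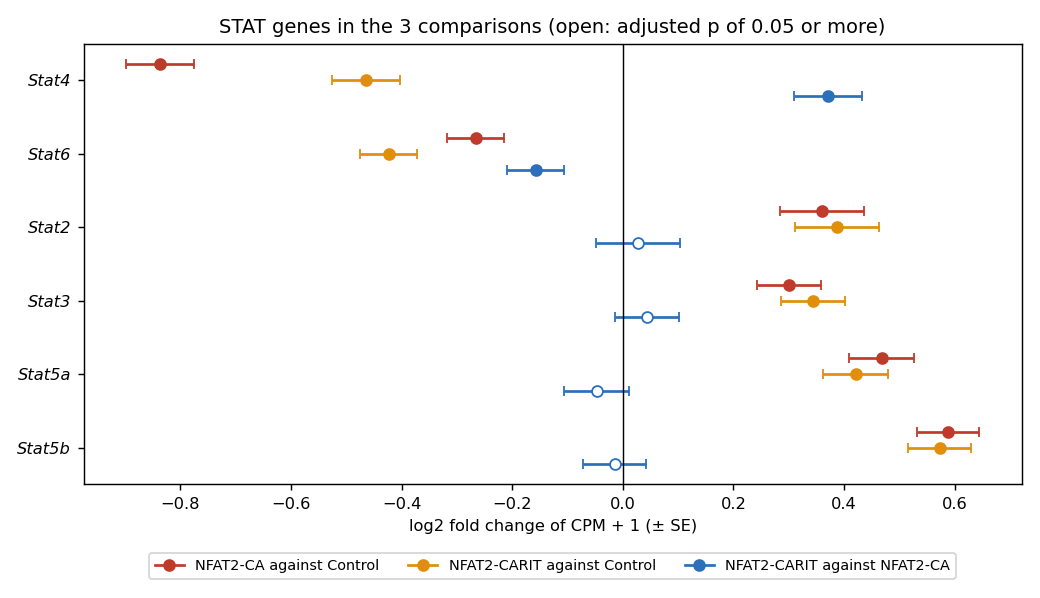
Log2 fold change of CPM + 1 (x axis; points with SE) of the 6 STAT genes in the 3 comparisons; filled points passed an adjusted p of 0.05. Stat4 and Stat6 lie left of 0 for both vectors and the other 4 genes right of it, and the direct comparison of the vectors is filled at Stat4 (0.37) and Stat6 (-0.16).

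The direct comparison sets the vectors against each other; they also differed in the level of Nfatc1, at 336 to 395 CPM with NFAT2-CA and 240.5 to 253 CPM with NFAT2-CARIT, and the part of that difference was not tested. Of the 6 genes 2 were called, 1 higher and 1 lower, against 34.0% of all genes tested (15.1% higher, 18.9% lower). The libraries did not overlap for Stat3, Stat4 and Stat6, 3 of 6 genes, against 49.0% of all genes. The 95% intervals for NFAT2-CARIT over NFAT2-CA on the log2 scale were -0.13 to 0.19 for Stat2, -0.08 to 0.17 for Stat3, -0.17 to 0.08 for Stat5a and -0.13 to 0.11 for Stat5b. Differences between the vectors up to these bounds are not excluded for those 4 genes. The authors' deposited table calls Stat4 alone in this comparison, against 2.84% of its genes, which include genes below 10 CPM.

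The summed level of the 6 genes moved little while its make-up moved a lot. It was 1846 ± 43.5 CPM with NFAT2-CA and 1928 ± 5.50 CPM with NFAT2-CARIT, against 1821 ± 111 CPM in Control. The NFAT2-CA libraries overlapped the Control libraries in this sum (two-sided exact permutation p = 1.0), and the NFAT2-CARIT libraries, at 1921 to 1931 CPM, lay above the highest Control library at 1891 CPM (p = 0.1, the smallest possible). Control replicate 3 had the lowest sum, 1693 CPM, and the lowest value of its group for 5 of the 6 genes; without it all 12 calls against Control were kept. Stat4 made up 18.4% ± 0.188 of the sum with NFAT2-CA, 22.8% ± 0.435 with NFAT2-CARIT and 33.4% ± 0.804 in Control. Stat5b had the largest share of CPM with the vectors, at 30.2% ± 0.317 and 28.6% ± 0.110, against 20.4% ± 0.259 in Control. These shares are not adjusted for transcript length, and per kb of the principal transcript Stat4 ranked first in every group. The share of Stat6 was 12.2% ± 0.267 with NFAT2-CA, 10.5% ± 0.215 with NFAT2-CARIT and 14.9% ± 0.555 in Control.

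**Figure D3:**
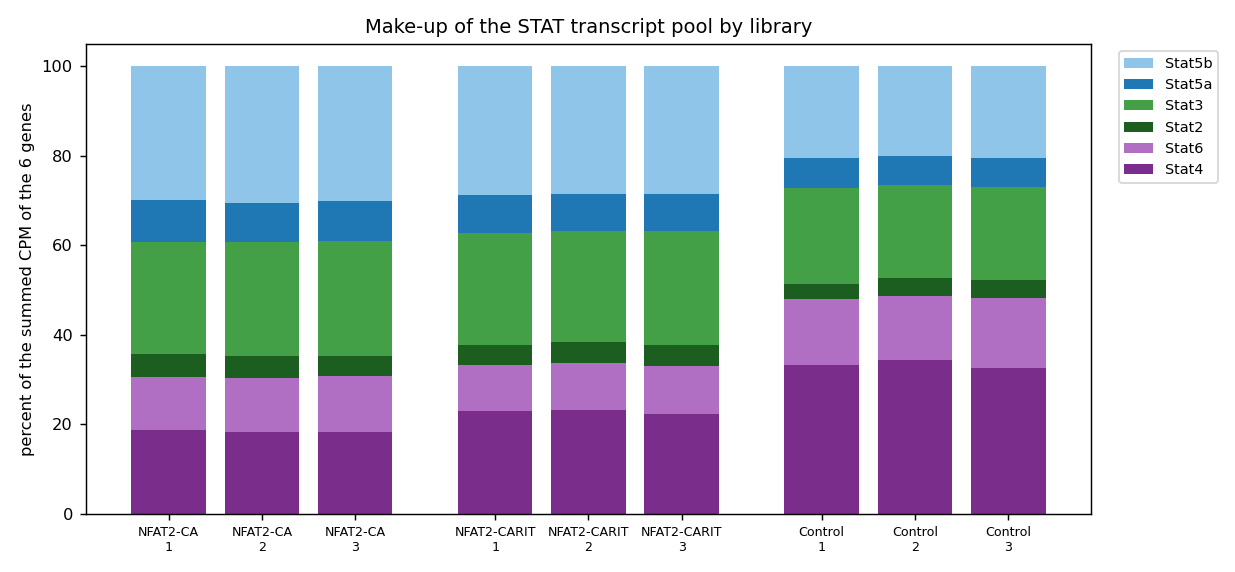
Percent of the summed CPM of the 6 STAT genes (y axis) taken by each gene, 1 bar per library, for NFAT2-CA, NFAT2-CARIT and Control replicates 1 to 3. Stat4 takes 18.3% to 18.6% in NFAT2-CA libraries, 22.3% to 23.2% in NFAT2-CARIT libraries and 32.7% to 34.3% in Control libraries. Shares are not adjusted for transcript length.

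Levels can be set between genes only per length, here CPM per kb of the principal transcript. In NFAT2-CA libraries Stat4 stood at 114 ± 3.28, Stat5b at 107 ± 3.14 and Stat3 at 104 ± 1.16 CPM per kb, with Stat5b and Stat3 overlapping between libraries. Stat6 followed at 59.7 ± 0.150, Stat5a at 42.6 ± 1.61 and Stat2 at 20.2 ± 2.04 CPM per kb. With NFAT2-CARIT the order was Stat4 at 147 ± 2.73, Stat3 at 107 ± 1.21, Stat5b at 106 ± 0.169, Stat6 at 53.5 ± 1.25, Stat5a at 41.2 ± 0.773 and Stat2 at 20.5 ± 0.590 CPM per kb, with no overlap between neighbours. In Control Stat4 stood apart at 204 ± 16.3 CPM per kb, ahead of Stat3 at 84.6 ± 6.16, with Stat6 (71.8 ± 2.34) and Stat5b (71.1 ± 4.22) overlapping, then Stat5a at 30.7 ± 1.92 and Stat2 at 15.6 ± 1.31. Stat5a and Stat2 were the lowest in every group whichever length was used. Per kb of all annotated exons, Stat3 ranked below Stat5b in each group, and Stat5b ranked above Stat4 with NFAT2-CA, so these orders depend on the length.

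Among 8638 other tested genes, leaving out unnamed gene models (Gm and Rik names), the closest profile to each STAT gene over the 9 libraries was sought as the smallest distance between log2(CPM + 1) profiles centred on their own means. For Stat4 these were Sh3bp5 at a distance of 0.153 and the cytokine gene Tgfb1 at 0.156. Tgfb1 stood at 121, 151 and 220 CPM in NFAT2-CA, NFAT2-CARIT and Control, the same stepwise order as Stat4. For Stat6 they were Papola at 0.087 and Acvr1b at 0.108. Stat5b lay closest to Trac, the T cell receptor alpha constant gene, at 0.103 and to Slc25a23 at 0.120, and Stat5a to Hnrnpul1 at 0.117 and Rab10 at 0.120. For Stat3 the nearest were Afg3l2 at 0.10 and Cdv3 at 0.103, and for Stat2 Zc3h11a at 0.153 and Dut at 0.187. Within the family the closest pair was Stat5a and Stat5b, at 0.211, yet 52 other genes were nearer to Stat5a than Stat5b was. With 3 groups of libraries many genes share a profile, so these distances describe likeness and nothing more.

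The upstream DNA of the genes that fell and of 2 that rose is shown, as examples of genes that moved in opposite directions. The windows are the 250 bases before a RefSeq start (GRCm38.p6). Those of Stat5a and the distal Stat5b start run through annotated exons and are not printed, but the counts below include them. The proximal Stat5b start, which holds none of the motifs searched, is not printed either. Capitals mark GGAAAA, the core that NFAT proteins bind followed by an A, read on either strand as GGAAAA or TTTTCC.
Stat4, distal start, chr1:51986898-51987147, plus strand: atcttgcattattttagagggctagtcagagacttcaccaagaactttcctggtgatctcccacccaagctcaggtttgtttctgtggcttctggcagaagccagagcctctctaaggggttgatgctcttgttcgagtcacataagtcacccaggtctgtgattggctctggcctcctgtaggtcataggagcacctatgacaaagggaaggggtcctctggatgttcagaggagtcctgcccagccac
Stat4, proximal start, chr1:52007990-52008239, plus strand: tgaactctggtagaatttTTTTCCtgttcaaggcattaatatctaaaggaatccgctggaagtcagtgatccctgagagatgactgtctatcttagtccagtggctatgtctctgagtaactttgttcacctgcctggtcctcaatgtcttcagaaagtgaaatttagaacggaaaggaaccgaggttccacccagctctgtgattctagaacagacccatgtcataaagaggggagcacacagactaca
Stat6, chr10:127642736-127642985, plus strand: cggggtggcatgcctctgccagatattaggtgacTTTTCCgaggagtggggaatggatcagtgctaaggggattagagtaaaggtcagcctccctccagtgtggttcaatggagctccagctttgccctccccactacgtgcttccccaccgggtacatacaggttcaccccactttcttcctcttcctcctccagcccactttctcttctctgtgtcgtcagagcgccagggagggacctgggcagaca
Stat2, chr10:128270248-128270497, plus strand: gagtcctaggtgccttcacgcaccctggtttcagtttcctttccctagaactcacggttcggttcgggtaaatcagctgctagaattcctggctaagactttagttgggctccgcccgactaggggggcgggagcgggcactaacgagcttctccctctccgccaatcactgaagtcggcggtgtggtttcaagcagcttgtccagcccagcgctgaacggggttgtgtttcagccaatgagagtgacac
Stat3, chr11:100939541-100939790, minus strand: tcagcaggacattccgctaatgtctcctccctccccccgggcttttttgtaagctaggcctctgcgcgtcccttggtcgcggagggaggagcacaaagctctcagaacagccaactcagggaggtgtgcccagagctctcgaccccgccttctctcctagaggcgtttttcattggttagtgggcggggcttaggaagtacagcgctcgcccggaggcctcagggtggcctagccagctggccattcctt
The match occurs in 2 of the 9 upstream windows of the 6 genes, at position -232 from the proximal Stat4 start and -216 from the Stat6 start, and in 20.4% of all 32851 windows of this length. A GGGCGG box, on either strand, occurs in 4 of the 9 windows, 1 each for Stat2, Stat3, Stat5a and Stat5b, and in 32.7% of all. The Stat5a and Stat5b windows with this box hold 139 and 143 bases of annotated exons. Neither TTCNNNGAA, a site class that STAT dimers bind, nor TGANTCA, the site class of AP-1, occurs in any of the 9 windows. Of all windows, 7.02% and 6.75% hold them. Other site classes of STAT proteins were not searched. The windows of Stat4 hold 1 CG pair at the distal and 3 at the proximal start and that of Stat6 holds 6. Among the genes that rose, the counts were 14 at Stat2, 13 at Stat3, 5 and 21 at the Stat5a starts and 40 and 5 at the Stat5b starts, so the groups overlap, with a median of 6 over all windows. No printed window holds more than 1 kind of these motifs, and a match of letters is no evidence of binding.

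Upstream of the STAT proteins, most receptor genes fell with both vectors. Of 23 receptor chains listed, 18 passed the filter. With NFAT2-CA 14 of these fell, 3 rose and 1 did not pass, with a median log2 fold change of -0.58, against -0.07 over all genes tested. With NFAT2-CARIT 14 fell and 4 rose, with a median of -0.52 against -0.09. Over all genes tested, 40.5% fell and 31.6% rose with NFAT2-CA, and 43.3% fell and 32.1% rose with NFAT2-CARIT. The largest fall was in Il27ra, the IL-27 receptor chain that feeds several STATs, at 33.5 ± 1.35 CPM with NFAT2-CA and 33.6 ± 2.53 CPM with NFAT2-CARIT, against 105 ± 3.50 CPM in Control (log2 fold changes of -1.62 ± 0.07 and -1.61 ± 0.07).

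The receptor genes of the STAT6 pathway fell along with Stat6. Il4ra, the IL-4 receptor chain on which STAT6 docks, was at 407 ± 15.7 CPM with NFAT2-CA and 385 ± 3.64 CPM with NFAT2-CARIT, against 950.2 ± 54.5 CPM in Control, a log2 fold change of -1.22 ± 0.06 and -1.30 ± 0.06. Its partner, the common gamma chain gene Il2rg, fell by 0.43 with NFAT2-CA and by 0.12 with NFAT2-CARIT (adjusted p = 0.049). The receptor chains that feed STAT4 moved apart. Il12rb1, the chain shared by the IL-12 and IL-23 receptors, was at 53.5 ± 3.51 and 39.9 ± 3.02 CPM with the vectors against 95.4 ± 4.65 CPM in Control. Il12rb2, the IL-12-specific chain to which STAT4 binds, was at 406 ± 11.4 CPM with NFAT2-CA and 518 ± 14.5 CPM with NFAT2-CARIT against 334 ± 37.9 CPM in Control, a rise of 0.28 ± 0.07 and 0.64 ± 0.07 on the log2 scale. The direct comparison, NFAT2-CARIT over NFAT2-CA, gave 0.35 ± 0.07 for Il12rb2 (adjusted p = 0.0013) and -0.42 ± 0.07 for Il12rb1 (adjusted p = 0.00031).

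Receptor genes of STAT5 signals moved both ways, and the STAT3-linked chains named here fell. Il2ra, the IL-2 receptor alpha chain, rose by 0.25 with NFAT2-CA and 0.18 with NFAT2-CARIT on the log2 scale, while Il2rb, the signalling beta chain, fell by 0.70 and 0.65. Il7r, the IL-7 receptor chain, was at 947 ± 40.2 CPM with NFAT2-CA and 948 ± 41.1 CPM in Control (adjusted p = 0.996), and it rose by 0.30 with NFAT2-CARIT. Of the STAT3-linked chains, Il21r fell by 0.98 and 1.06, Il6ra by 0.91 and 1.21, Il10rb by 0.98 and 0.89, and Il6st, the shared gp130 chain, by 0.21 and 0.44. Ifnar1 and Ifnar2, the type I interferon receptor genes upstream of STAT2, fell by 0.43 and 0.41 with NFAT2-CA and by 0.18 and 0.41 with NFAT2-CARIT. Ifngr1, a chain of the interferon-gamma receptor, fell by 0.70 and 0.60, and its partner Ifngr2 rose by 0.46 and 0.70.

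**Figure D4:**
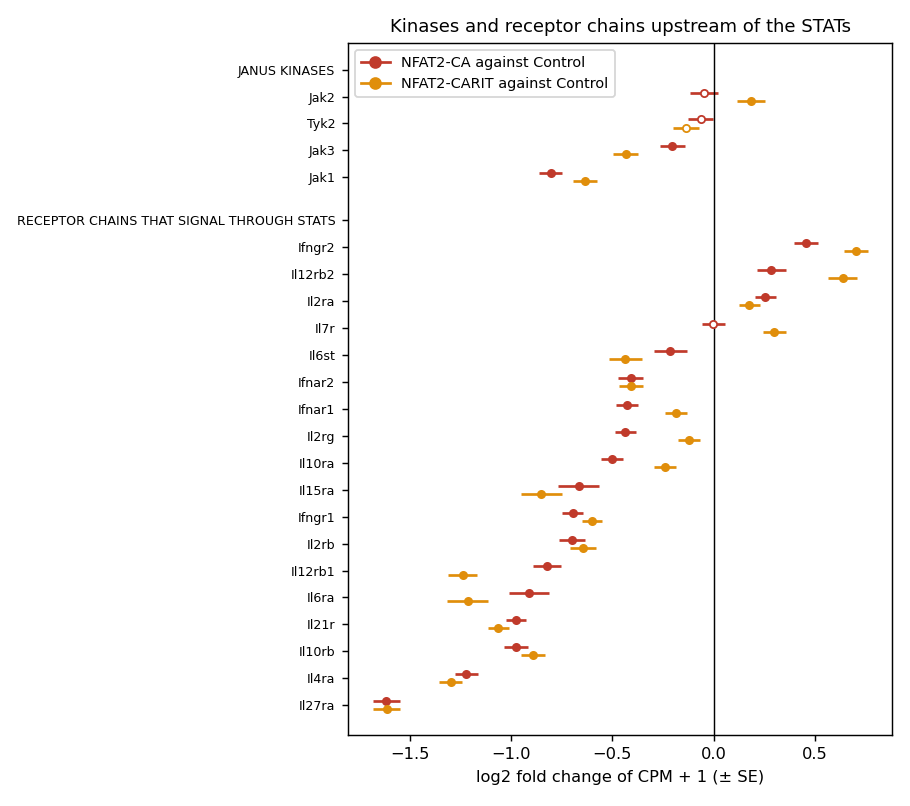
Log2 fold change of CPM + 1 (x axis; points with SE) of the Janus kinase and receptor genes tested, for NFAT2-CA and NFAT2-CARIT against Control; open points did not pass an adjusted p of 0.05. Most receptor chains lie left of 0, down to -1.62 for Il27ra, and Ifngr2, Il12rb2 and Il2ra lie right of it for both vectors.

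All 4 Janus kinase genes were tested. With NFAT2-CA 2 were called, against 72.0% of all genes tested, and 1 without NFAT2-CA replicate 3 or under TMM-type scaling. Jak1, the partner of most of these receptors, stood at 624 ± 3.50 CPM with NFAT2-CA and 703 ± 27.4 CPM with NFAT2-CARIT, against 1092 ± 67.9 CPM in Control (log2 fold changes of -0.80 ± 0.06 and -0.63 ± 0.06, adjusted p = 3.3e-09 and 5.4e-08). Jak3, which works with the common gamma chain, had -0.20 ± 0.06 (adjusted p = 0.0090) and -0.43 ± 0.06 (adjusted p = 1.1e-05). Jak2, used by the IL-12 and interferon-gamma receptors, had -0.05 ± 0.07 (adjusted p = 0.54) with NFAT2-CA and rose by 0.19 ± 0.07 (adjusted p = 0.023) with NFAT2-CARIT. Tyk2, the kinase of interferon and IL-12 receptors, had -0.06 ± 0.06 (adjusted p = 0.37) and -0.14 ± 0.06 (adjusted p = 0.061).

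Of the 17 cytokine genes that signal through STATs, 4 reached the filter. Il10 was at 31.9 ± 2.86 CPM with NFAT2-CA and 11.2 ± 0.637 CPM with NFAT2-CARIT, against 1.67 ± 0.295 CPM in Control, and Il21, at 15.5 ± 1.92 and 19.2 ± 2.44 CPM, against 1.16 ± 0.286 CPM. Il10, Il21 and Lif entered the test only through the vector libraries, where they are high. Lif, a cytokine acting through STAT3, rose by 1.47 and 0.92 on the log2 scale, and Osm, of the same cytokine family, fell by 0.73 and 0.80.

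All 19 listed inhibitors of the pathway were tested: 9 rose, 7 fell and 3 did not pass with NFAT2-CA, and 10 rose, 7 fell and 2 did not pass with NFAT2-CARIT, with medians of 0.12 and 0.19 against -0.07 and -0.09 over all genes. Over all genes tested, 31.6% rose and 40.5% fell with NFAT2-CA, and 32.1% rose and 43.3% fell with NFAT2-CARIT, so the share of inhibitors that fell is near the background. Ptpn6, the phosphatase SHP-1, was at 463 ± 24.0 and 438 ± 7.59 CPM with the vectors against 165 ± 6.44 CPM in Control, a log2 fold change of 1.48 ± 0.06 and 1.40 ± 0.06. Ptpn1, the phosphatase PTP1B, was at 260.4 ± 7.81 CPM with NFAT2-CA, 149 ± 5.86 CPM with NFAT2-CARIT and 131 ± 8.08 CPM in Control, and NFAT2-CARIT over NFAT2-CA gave -0.80 ± 0.06 on the log2 scale (adjusted p = 5.1e-08). Pias2, of the PIAS family of STAT inhibitors, rose by 0.57 and 0.79, and Usp18, which restrains interferon receptors, fell by 0.68 and 0.82. Usp18 reached 10 CPM in too few vector libraries to pass the filter without Control, where it is high. Among the SOCS feedback inhibitors, Socs2 rose by 0.38 with NFAT2-CA and 0.94 with NFAT2-CARIT, and Socs3 fell by 0.44 and 0.62. Socs1 was at 23.5 ± 2.90 CPM with NFAT2-CA and 14.7 ± 0.818 CPM with NFAT2-CARIT, against 25.7 ± 1.43 CPM in Control, with an adjusted p of 0.19 and 9.3e-07. The direct comparison for Socs1 gave -0.63 ± 0.09 (adjusted p = 6.0e-05).

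Genes that STAT proteins are known to regulate moved in both directions, as did all genes tested. Of all genes tested, 31.6% rose and 40.5% fell with NFAT2-CA (72.0% called), and 32.1% rose and 43.3% fell with NFAT2-CARIT (75.4% called). The medians over all genes were -0.07 and -0.09. Of 17 tested STAT5 targets, 6 rose, 9 fell and 2 did not pass with NFAT2-CA, and 8 rose and 9 fell with NFAT2-CARIT, with medians of -0.28 and -0.29. Cish and Socs2, feedback genes induced by STAT5, rose, Cish by 0.29 and 0.46 on the log2 scale. The kinase gene Pim2 rose by 1.07 and 0.86. The growth genes Myc and Ccnd2 fell: Myc was at 36.5 ± 1.54 CPM with NFAT2-CA and 30.8 ± 0.543 CPM with NFAT2-CARIT against 107 ± 3.54 CPM in Control, and Ccnd2 at 251 ± 7.74 and 187 ± 6.61 CPM against 643 ± 48.8 CPM. Gzmb, the granzyme B gene, fell by 1.63 and 1.61. Pim1, the other Pim kinase gene listed, was 0.52 higher and the survival gene Bcl2 was -0.45, lower, in NFAT2-CARIT over NFAT2-CA. Bcl6, a repressor that STAT5 is known to restrain and STAT3 to induce, rose to 66.0 ± 1.44 CPM with NFAT2-CA and 119 ± 1.75 CPM with NFAT2-CARIT, against 36.3 ± 1.80 CPM in Control.

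Of 13 tested STAT3 targets, 7 rose and 6 fell with NFAT2-CA, and 6 rose, 5 fell and 2 did not pass with NFAT2-CARIT. Of all genes, 31.6% and 32.1% rose and 40.5% and 43.3% fell. The medians were 0.24 and 0.08, against -0.07 and -0.09 over all genes. Ahr, the aryl hydrocarbon receptor, was at 94.9 ± 1.88 CPM with NFAT2-CA and 44.3 ± 1.55 CPM with NFAT2-CARIT, against 2.43 ± 0.447 CPM in Control, and entered the test only through the vector libraries. Maf, a transcription factor gene, fell to 15.9 ± 0.784 and 22.7 ± 2.79 CPM against 65.7 ± 4.92 CPM in Control.

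Of 7 tested STAT4 targets, 3 rose, 3 fell and 1 did not pass with either vector. Of all genes, 31.6% rose and 40.5% fell with NFAT2-CA, and 32.1% rose and 43.3% fell with NFAT2-CARIT. Without Control replicate 2, 3 were called for each vector in place of 6, in part because 2 genes then missed the filter. The medians were -0.14 and -0.09, near the -0.07 and -0.09 of all genes tested. The falls were largest in the 2 IL-18 receptor genes. Il18rap was at 1.20 ± 0.186 CPM with NFAT2-CA and 2.73 ± 0.623 CPM with NFAT2-CARIT, against 24.2 ± 0.970 CPM in Control. Il18r1 was at 2.79 ± 0.263 and 5.27 ± 1.91 CPM against 20.8 ± 2.74 CPM. Both were below 10 CPM in all 6 vector libraries and entered the test only through Control, where they are high. Both therefore missed the filter when any 1 Control replicate was left out. Tbx21, the T-bet gene, had -0.14 ± 0.06 (adjusted p = 0.053) with NFAT2-CA, fell by 0.48 ± 0.06 with NFAT2-CARIT, and gave -0.33 ± 0.06 for NFAT2-CARIT over NFAT2-CA (adjusted p = 0.00086). Furin, a protease gene, was 0.35 higher on the log2 scale in that direct comparison, and the kinase gene Map3k8 rose by 0.61 and 0.57 against Control.

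Of 6 tested STAT6 targets, 4 rose and 2 fell with either vector. Of all genes, 31.6% rose and 40.5% fell with NFAT2-CA, and 32.1% rose and 43.3% fell with NFAT2-CARIT. Gata3, the Th2 factor gene, was at 354 ± 9.28 CPM with NFAT2-CA and 263 ± 3.18 CPM with NFAT2-CARIT against 199.9 ± 11.2 CPM in Control, the opposite direction to Stat6. The chemokine receptor gene Ccr8 was at 59.3 ± 2.84 and 42.6 ± 3.53 CPM against 11.6 ± 1.01 CPM, and Ccr4 fell by 0.89 and 1.21. Arg1, the arginase gene, was at 3.99 ± 0.178 and 14.8 ± 1.33 CPM against 0.0140 ± 0.0241 CPM and passed the filter only through NFAT2-CARIT libraries. Epas1 rose by 0.16 and 1.44 on the log2 scale.

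Most of the interferon genes tested fell, the opposite direction to Stat2. Of 20 listed, 11 were tested: 9 fell, 1 rose and 1 did not pass with NFAT2-CA, where 40.5% of all genes fell, and 8 fell, 2 rose and 1 did not pass with NFAT2-CARIT, where 43.3% fell. The medians were -0.70 and -0.82, against -0.07 and -0.09 over all genes. Irf9, the DNA-binding partner of STAT2, was at 55.7 ± 2.51 CPM with NFAT2-CA and 48.4 ± 3.26 CPM with NFAT2-CARIT, against 95.1 ± 1.49 CPM in Control. Ifit2, an antiviral gene, was at 13.0 ± 0.901 and 9.95 ± 0.519 CPM against 46.3 ± 0.664 CPM. Xaf1 fell by 2.05 and 2.24 on the log2 scale, Oas3 fell by 1.29 and fell by 1.70, and Irf7, a factor that amplifies interferon responses, by 1.37 and 1.28. Xaf1 was below 10 CPM in every vector library and entered the test only through Control. Usp18 reached 10 CPM in only 2 vector libraries, so it too entered only through Control. Rsad2, the viperin gene, was at 8.42 ± 0.475 and 16.5 ± 0.822 CPM against 3.62 ± 0.867 CPM and rose with both vectors, passing the filter only through NFAT2-CARIT libraries. Isg20 fell by 0.40 with NFAT2-CA and rose by 0.75 with NFAT2-CARIT.

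**Figure D5:**
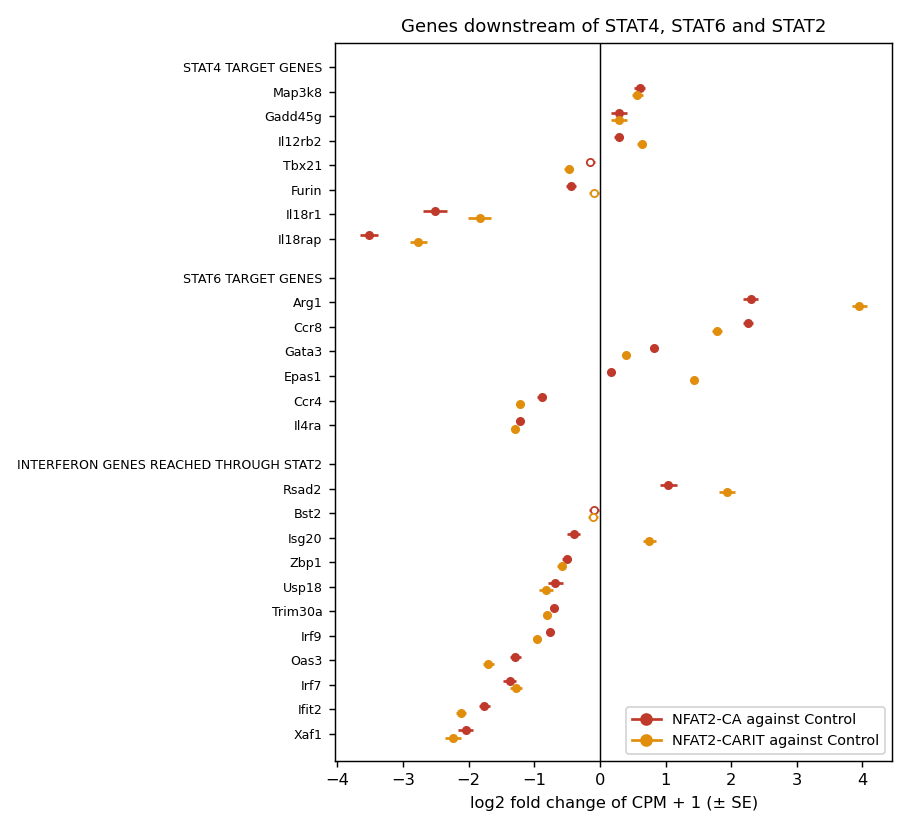
Log2 fold change of CPM + 1 (x axis; points with SE) of tested genes known to lie downstream of STAT4, STAT6 and STAT2, for NFAT2-CA and NFAT2-CARIT against Control; open points did not pass an adjusted p of 0.05. Il18rap (-3.52 and -2.77) and Il18r1 lie far left, Arg1 and Ccr8 far right, and most interferon genes left of 0.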

How the data were processed

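The authors deposited 1 table of CPM values (gene reads per library total; the lowest value in each column is 0.0001, an offset of the authors) and 1 table of their comparisons, which per the file headers holds p-values, step-up FDR values and log2 ratios. Partek 10, DESeq2 and the build mm10 are named in the submitters' processing notes; for aligner, counting rule, annotation, strand and read length the status is: not given in the sources used here. Of values up to 1 CPM, 82.0% to 84.7% were whole reads within 0.1 read at the best depth, too few to rebuild counts. Tests on log2(CPM + 1) used limma 3.58.1 (R 4.3.3) with group means over all 9 libraries, limma's trended and robust variance moderation, a filter of 10 CPM in at least 3 libraries and Benjamini-Hochberg adjustment over 9233 genes. In simulated NFAT2-CA and Control libraries (8934 genes), of 50 genes per step, 26 were called at a log2 change of 0.3, 47 at 0.6 and 50 at both 1 and 2, with 9 false calls. In that simulation 8734 genes were unchanged, whereas 72.0% of genes were called in the data, so these rates may not carry over.

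Coordinates and lengths are from GENCODE M21 on GRCm38, whose gene starts equal those of the file for all 6 genes; promoters are from RefSeq, which matched all 6. Ratios and sums were tested with exact permutation tests (SciPy 1.17.1). The STAT genes and the 9 pathway lists were chosen with earlier results of these data known. Named were all 6 STAT genes, the Janus kinases, up to 4 called genes of each list with the largest change in a comparison and, per STAT gene, the 2 tested genes with the nearest profile, gene models with Gm or Rik names left out; other list genes named by their role were picked after their values were seen. Some STAT targets sit in several lists, and a STAT3 target that this rule selects is not reported here.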

Additional observations from a re-analysis of the deposited data

Results flagged for a closer look

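Stat4 and Stat6 differed between the vectors by the direct comparison of NFAT2-CARIT with NFAT2-CA, which tests whether the effects of the vectors against Control are unequal. For Stat4 the difference was 0.37 on the log2 scale, with 431 to 448 CPM in NFAT2-CARIT libraries and 329 to 349 CPM in NFAT2-CA libraries, and its adjusted p stayed between 7.6e-06 and 0.0028 in all 19 alternative settings. For Stat6 it was -0.16, with 196 to 205 CPM in NFAT2-CARIT libraries and 225 to 226 CPM in NFAT2-CA libraries, and its adjusted p ran from 0.0085 to 0.103 over those settings. Groups of 3 libraries are too small for a check of single outlying libraries.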

How the results depend on the processing

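All 6 STAT genes kept their direction and their call against Control, for both vectors, under all 19 alternative settings (pseudocounts 0.5 and 5, no filter, filters of 1 and 50 CPM, TMM-type factors, quantile normalization, plain empirical Bayes, only the 6 libraries compared, the replicate block and 9 settings that leave out 1 library). Between the vectors, 2 STAT genes were called; the count was 1 under TMM-type factors and 1 to 2 when 1 library was left out, Stat6 being the gene lost. Log2 fold changes of genes not called changed sign in this comparison: Stat3 was -0.00027 under quantile normalization and Stat5b 0.0040 under TMM-type factors. With 1 library left out, Stat2 ran from -0.057 to 0.080 and Stat5b from -0.038 to 0.0027. Labels share replicate numbers across groups, but same-numbered libraries did not deviate together (correlations from -0.24 to 0.31), so the numbers are not taken as pairs; with the replicate block 6, 6 and 2 STAT genes were called and Stat6 stood at an adjusted p of 0.048 between the vectors. TMM-type factors moved the median of all genes by 0.06 to 0.08 against Control. With a filter of 50 CPM, which tests fewer genes, 3417 genes were called with NFAT2-CA and 3554 with NFAT2-CARIT relative to Control, and 1648 between the vectors, in place of 6650, 6964 and 3142. Counts called in the pathway lists stayed within 1.5 times in 480 cases, went lower in 31 and higher in 2. Intervals cover the spread between 3 libraries a group.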
